A study of Mus musculus with 12 samples.

Results

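R1 mouse embryonic stem (ES) cells were compared with fibroblasts on day 1 of induced reprogramming, on 6 of the 12 arrays of a study of Oct4 and Tet1 reprogramming. The 6 arrays were chosen by their titles, 3 for R1 ES cells and 3 for the day-1 cells, and the comparison covered 9539 genes read by probe sets with 1 gene symbol. The R1 cells were an ES line of strain 129 at passage 20. They were grown with the cytokine LIF on mouse embryonic fibroblast feeders whose division had been blocked with mitomycin C, and a short plating step let feeders settle out of the suspension. The day-1 cells were passage 3 fibroblasts of strain OG2-GFP/Rosa26-M2rtTA from OT-iPSC mice, where OT stands for Oct4 plus Tet1. After 3 passages in Feeder Medium they received ES medium for 1 day, and its doxycycline turned on the introduced factors. The other 6 arrays held 3 samples of uninduced passage 3 fibroblasts and 3 of an Oct4 plus Tet1 iPS line at passage 10 with the day-1 strain background, and serve here for levels side by side and for a comparison of their own. The strain labels of the fibroblast arrays name M2rtTA, M3rtTA and M4rtTA in turn. Strain, cell line, passage, feeders and days of induction all differed between the R1 and day-1 cells, so their parts in a difference cannot be told apart. Whether a group's arrays stem from independent cultures is not said in the labels, and p-values accordingly reflect only how far these samples spread.

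Mouse ES cells are kept in an undifferentiated state by a network of transcription factors around Oct4 (gene Pou5f1), Sox2 and Nanog, which bind each other's regulatory DNA and that of many further ES genes. LIF feeds this network through the receptor pair Lifr and Il6st, the kinase Jak1 and Stat3. Fibroblasts lie at the other end of the scale: they are mesenchymal, secrete collagen-rich matrix, carry contractile actin cables and lack the E-cadherin contacts of ES colonies. Tet1 oxidises methylated cytosine in DNA and is itself abundant in ES cells. In Oct4-driven reprogramming the fibroblast is asked to leave one state for the other, and the day-1 cells were sampled at the beginning of that course.

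Values were log2 levels as deposited, on which a difference of 1 is a 2-fold change. A gene was called when limma's Benjamini-Hochberg adjusted p was under 0.05 and the log2 difference, ES minus day-1, was at least 1 in size. By this rule 4763 of the 9539 genes were called, or 49.9% of them, 1947 higher in ES cells (20.4%) and 2816 lower (29.5%). In all 4763 called genes the 3 ES values lay wholly above or below the 3 day-1 values, which was true of 93.8% of all genes. A total of 3629 genes (38.0%) had a 95% interval of the difference wholly within 2-fold. The largest differences lay on the side of the ES cells: 62 genes were higher and 88 lower by at least 4 on the log2 scale, but 12 were higher and 1 lower by at least 6. Across genes, r between day-1 arrays was 0.996 to 0.997, between ES arrays 0.988 to 0.993, and between an ES and a day-1 array 0.61 to 0.641. Precision is limited by there being 3 arrays a group. The standard error of a difference had a median of 0.09.

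Array medians were not level: they lay between 8.25 and 8.29 in day-1 cells and between 7.89 and 7.98 in ES cells. The median difference over all genes was therefore -0.32 in the deposited values, -0.11 after quantile normalization and 0.02 after centring the arrays, and a gene at the middle of the table reads -0.32. Of the calls, 40.9% were higher in ES cells on the deposited scale, 51.7% after quantile normalization and 58.3% after centring. Every probe set in the table varied by at least 0.51 between its lowest and highest array, so shares refer to genes that vary somewhere in the series. Listed genes that the table lacks were not analysed here.

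**Figure D1:**
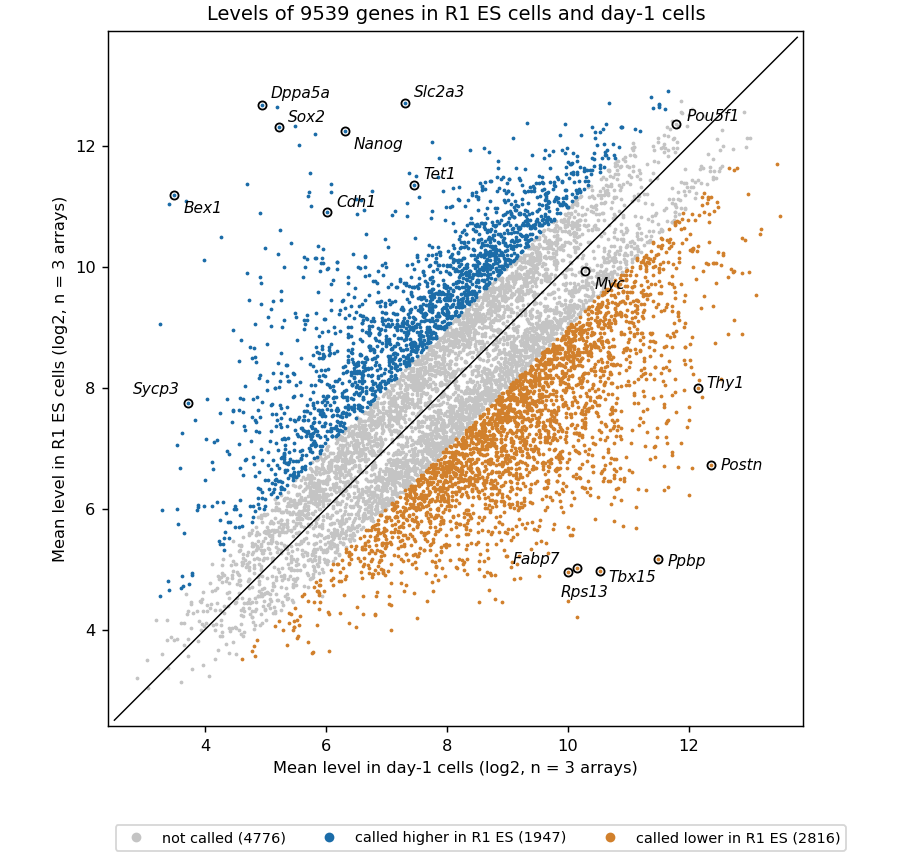
Mean log2 level of 9539 genes in day-1 cells (horizontal) and R1 ES cells (vertical), 3 arrays each; blue points were called higher and orange points lower in ES cells, and the line marks equal levels. Pou5f1 lies close to the line at a high level in both groups, while Sox2, Nanog and Dppa5a lie far above it and Postn, Ppbp and Tbx15 far below.

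Pou5f1, one of the introduced factors, was already near the ES level in day-1 cells. It read 12.36, 12.37 and 12.36 on the ES arrays and 11.85, 11.73 and 11.81 on the day-1 arrays. The groups did not overlap, but the difference was 0.57 ± 0.08 (SE), with a 95% interval of 0.39 to 0.75 that lies within 2-fold (limma adjusted p = 1.9e-05). In fibroblasts it stood at 5.04 and in iPS cells at 12.01. Neither for Pou5f1 nor for Tet1 is it stated if the probe set picks up the cells' own transcript, that of the introduced gene, or a mixture.

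Tet1, the other introduced factor, was not at the ES level on day 1. It read 11.38, 11.26 and 11.45 in ES cells and 7.47, 7.47 and 7.45 in day-1 cells, a difference of 3.90 ± 0.09 or 14.9-fold (limma adjusted p = 4.3e-13). Tet1 stood at 6.68 in fibroblasts and 10.25 in iPS cells. Day-1 cells exceeded fibroblasts by 0.79 ± 0.09, which was not called. Of the factors classically used beside Oct4, Sox2 and Klf4 were higher in ES cells and Myc was not called. Klf4, a zinc finger factor that fibroblasts also express, read 10.64, 10.64 and 10.62 against 8.24, 8.66 and 8.41, a difference of 2.2 ± 0.10. Myc, a growth-promoting factor, read 9.78, 10.24 and 9.81 against 10.31, 10.33 and 10.24, and its difference of -0.35 ± 0.13 had an interval within 2-fold (limma adjusted p = 0.019).

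Every other measured member of the pluripotency network except Tead4 was higher in ES cells. Of 40 listed genes 39 were measured, 37 were called higher and 0 lower, and the median difference was 4.33 against -0.32 over all genes. Pou5f1 and Tead4 (0.17 ± 0.13), a TEA-domain factor best known from the trophoblast, were the 2 not called. Across its members the median level of a group was 10.87 for ES cells, 10.56 for iPS cells, 5.95 for day-1 cells and 5.80 for fibroblasts. By array it was 5.90 to 6.06 in day-1 cells and 10.80 to 10.91 in ES cells.

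Sox2 and Nanog, the best known partners of Oct4, were among the widest differences. Sox2 read 12.31, 12.29 and 12.33 in ES cells and 5.35, 5.12 and 5.2 in day-1 cells, a 136-fold difference (7.09 ± 0.17). Nanog, a homeobox factor, read 12.20, 12.46 and 12.09 against 6.38, 6.35 and 6.18, a 61.5-fold difference (5.94 ± 0.10). Neither group came near the other for either gene. The 250 bases before their start sites are shown because both hold TTTGCAT or its reverse complement, in capitals, a string shorter than the full octamer motif that Oct4 is known to bind. Sequences here and below run 5′ to 3′ on the gene's strand and come from RefSeq, build GRCm38.p6.
Sox2, chr3:34649745-34649994 (+): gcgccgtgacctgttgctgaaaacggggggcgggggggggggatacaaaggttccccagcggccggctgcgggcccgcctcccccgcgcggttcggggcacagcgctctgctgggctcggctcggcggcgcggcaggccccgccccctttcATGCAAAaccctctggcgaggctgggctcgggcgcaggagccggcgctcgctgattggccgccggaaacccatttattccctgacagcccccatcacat
Nanog, chr6:122707239-122707488 (+): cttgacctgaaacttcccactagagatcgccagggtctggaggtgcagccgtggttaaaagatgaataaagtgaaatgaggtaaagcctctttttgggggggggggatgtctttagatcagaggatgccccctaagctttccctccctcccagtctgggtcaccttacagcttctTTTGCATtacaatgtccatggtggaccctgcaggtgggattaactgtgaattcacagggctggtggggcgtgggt
The match begins 99 bases before the start in Sox2 and 75 bases before it in Nanog. Promoters were searched on both strands over 300 bases, 250 before to 50 after each start, and 7533 of the tested genes had 1 or more. TTTGCAT was in 4 of 37 promoters of the called pluripotency genes (10.8%), in 3.5% of promoters of all tested genes and in 4.63% of all promoters of the table. The 4 promoters belong to 3 genes, since overlapping Nanog promoters share the same match. Among promoters of all genes called higher the share was 3.84%, and among those called lower 3.63%. For the called genes of cytokines and inflammation it was 16.1% (5 of 31). TTTGCAT was in none of the promoters given for Pou5f1 and Tdgf1. A match is a description of these letters and no site of binding.

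Dppa5a, an RNA-binding protein of ES cells and germ cells, had the largest difference of all, 7.74 ± 0.33 or 213-fold. It read 12.70, 12.72 and 12.61 in ES cells and 4.02, 5.53 and 5.27 in day-1 cells, where the arrays spread widely at a low level. Tdgf1, the Nodal co-receptor Cripto, read 12.71, 12.55 and 12.68 against 5.21, 5.07 and 5.29 (175-fold). Nr0b1, an orphan nuclear receptor also called Dax1, read 12.31, 12.42 and 12.27 against 5.68, 5.42 and 5.38 (115-fold). For none of the 3 did an ES array come near a day-1 array.

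Zfp42, the ES marker Rex1, differed by 6.68 ± 0.16, the chromatin-associated factor Utf1 by 6.39 ± 0.12 and the F-box protein Fbxo15 by 6.22 ± 0.12. Dppa4 (6.14 ± 0.13), Dppa2 (5.52 ± 0.10), the nuclear receptor Esrrb (5.46 ± 0.09) and L1td1 (5.30 ± 0.10) were higher too. So were the methylation cofactor Dnmt3l (5.25 ± 0.10) and the growth regulator Mycn (5.15 ± 0.11). At the small end of the called members stood Dppa3 (1.08), Etv4 (1.08), Tbx3 (1.58) and Prdm14 (1.75). Outside the list the widest differences belonged to Bex1, an X-linked adaptor gene (7.70 ± 0.09, 208-fold), the zinc finger genes Zfp640 (7.64 ± 0.10) and Zfp980 (7.41 ± 0.20), the hormone precursor Trh (6.46 ± 0.12), Fam169a (5.99 ± 0.13) and the phospholipase Pla2g1b (5.83 ± 0.12). Zfp640 and Zfp980 belong to a large family of alike genes, and reads of near copies by their probe sets were not tested.

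**Figure D2:**
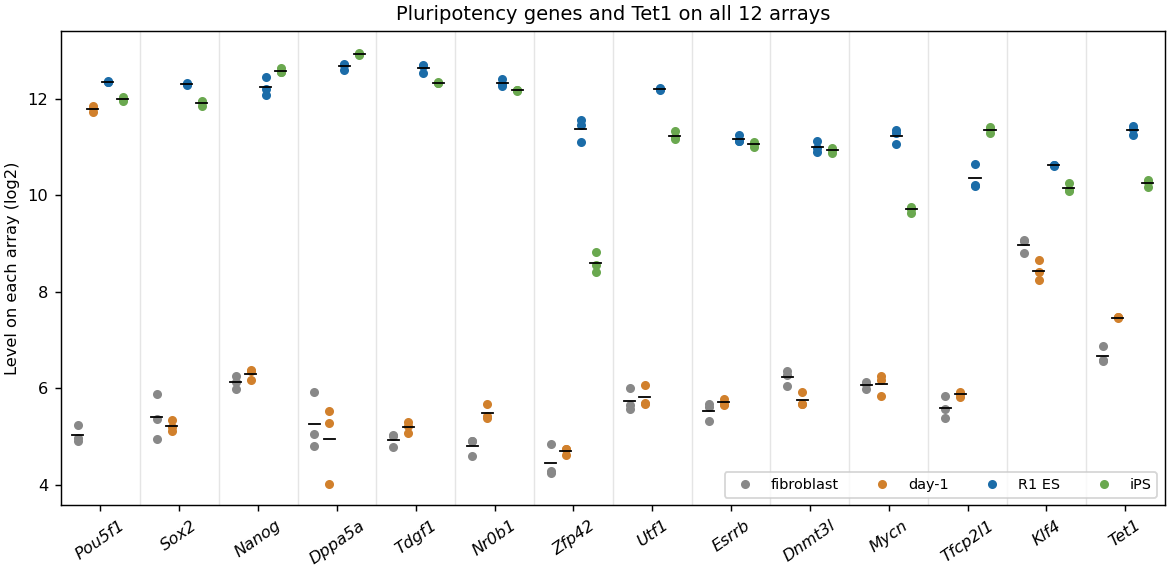
Log2 level on each of the 12 arrays of 13 pluripotency genes and Tet1; each point is 1 array, coloured by group, and each bar is the mean of 3. Pou5f1 day-1 points lie near the ES and iPS points, and for every other gene shown the day-1 mean lies within 1 log2 unit of the fibroblast mean.

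Of 12 measured genes of the Nodal pathway, which signals through activin receptors in early embryos, 8 were higher in ES cells and 2 lower, with a median of 1.63. The ligand Gdf3 differed by 4.32 ± 0.11, the ligand Nodal by 2.53 ± 0.11, the secreted inhibitors Lefty2 by 3.05 ± 0.23 and Lefty1 by 1.82 ± 0.28, and the partner factor Foxh1 by 1.96. Lefty2 varied within the ES group, at 7.88, 6.90 and 8.11, yet stayed above the day-1 values of 4.72, 4.46 and 4.55. The 2 lower members were the processing enzyme Furin (-3.21 ± 0.07) and the signal carrier Smad3 (-1.69 ± 0.10), while the related processing enzyme Pcsk6 was higher (1.17). Of 21 listed markers of primed or lineage-committed cells only 5 were measured, and T, Fgf5, Pou3f1 and Foxa2 were among those absent. The mesendoderm factor Eomes was called higher (1.84 ± 0.10), and the intervals of the other 4 lay within 2-fold. Otx2, counted with the pluripotency list instead, was higher by 3.80 ± 0.17.

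Of 15 genes of the LIF pathway and its targets, 7 were higher in ES cells: Tfcp2l1 (4.48 ± 0.13), Gbx2 (2.36 ± 0.13), Klf4, Pim2 (2.12), Lifr (1.92 ± 0.14), Pim1 (1.20) and Pim3 (1.20). Tfcp2l1 is a transcription factor induced by Stat3, and Lifr is the LIF receptor itself. Tfcp2l1, Gbx2 and Klf4 are also counted in the pluripotency list. The 4 lower members were the oncostatin M receptor Osmr (-4.22 ± 0.21), the kinases Jak2 (-2.88 ± 0.18) and Jak1 (-1.83 ± 0.11), and the shared receptor chain Il6st (-1.25 ± 0.07). Lower calls made up a slightly smaller share of this list than of all genes (29.5%). Il6st lost its call after centring, at -0.91. Stat3 stood at 10.13 ± 0.04 (SD, n = 3) in ES cells and 10.94 ± 0.00 in day-1 cells, and its difference of -0.81 ± 0.07 had an interval within 2-fold.

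Of 16 measured FGF genes and feedback regulators, 7 were higher in ES cells and 6 lower. Fgf4, the FGF that ES cells secrete, read 9.89, 9.65 and 10.07 against 6.89, 6.70 and 6.56 (3.15 ± 0.13), and the feedback inhibitors Spry2 (3.20 ± 0.09) and Spry4 (2.69) were higher with it. The mesenchymal ligands Fgf7 (-3.70 ± 0.22) and Fgf2 (-3.56 ± 0.21) and the receptor Fgfr1 (-1.54 ± 0.08) were lower. Among the smaller calls, Fgfr2 (-1.04) and the phosphatase Dusp4 (-1.06) ended without ES replicate 3 and under both other scalings, which left 4 lower members.

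Of 25 Wnt genes 14 were lower in ES cells, led by the ligand Wnt5a (-3.06 ± 0.12), the secreted inhibitor Sfrp1 (-2.61 ± 0.13) and the receptor Fzd1 (-2.35 ± 0.12). The 3 higher were the nuclear partner Lef1 (2.58 ± 0.13) and the receptors Fzd5 (1.62 ± 0.11) and Fzd10 (1.11 ± 0.12). Of 32 TGF-beta and BMP genes 23 were lower and 0 higher, with a median of -2.16. Tgfb3, a ligand, read 5.93, 6.79 and 5.71 in ES cells and 10.90, 10.96 and 10.81 in day-1 cells (-4.74 ± 0.20). The BMP antagonist Grem1 (-3.87 ± 0.11), the activin subunit Inhba (-3.69 ± 0.32), the receptor Tgfbr2 (-2.53) and the BMP target genes Id1, Id2 and Id3 (-1.51, -3.02 and -2.19) were lower too.

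Of 32 measured genes of epithelial adhesion, 21 were higher in ES cells and 0 lower, with a median of 1.69. Epcam, a surface adhesion protein, read 10.06, 10.13 and 10.44 in ES cells and 5.69, 5.16 and 4.75 in day-1 cells (5.01 ± 0.21). Cdh1, which is E-cadherin, read 10.92, 10.70 and 11.12 against 6.20, 5.95 and 5.90, a 29.8-fold difference (4.90 ± 0.12). The protease inhibitor Spint2 (4.31 ± 0.10) and the splicing regulator Esrp1 (3.85 ± 0.11) completed the 4 widest. The keratins Krt8 (0.94) and Krt18 (0.73) were not called.

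Regulators of epithelial-mesenchymal transition stood the opposite way. Of 17 measured, 16 were lower in ES cells, with a median of -3.15, and Fn1, fibronectin, narrowly missed the fold minimum at -0.96 ± 0.06. Snai2, a repressor of Cdh1, read 6.47, 6.59 and 6.46 in ES cells and 10.73, 10.73 and 10.82 in day-1 cells (-4.26 ± 0.08). N-cadherin, Cdh2 (-4.05 ± 0.15), the homeobox factor Prrx1 (-4.04 ± 0.12), S100a4 (-4.98 ± 0.16), Zeb2 (-3.81) and Snai1 (-3.15) were also lower. The list's level, as a median over members, was 7.27 in ES and 7.46 in iPS cells but 10.74 in day-1 cells and 10.59 in fibroblasts. By array medians of this list the day-1 cells lay nearer to fibroblasts than to ES cells.

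Most measured matrix genes were lower in ES cells. Of 32 non-collagen matrix genes 29 were lower in ES cells and 1 higher, with a median of -3.04. Periostin, Postn, a matrix protein of fibroblasts, read 6.14, 7.43 and 6.62 in ES cells and 12.36, 12.37 and 12.39 in day-1 cells, a difference of -5.64 ± 0.24. Asporin, Aspn (-5.54 ± 0.26), the elastic fibre proteins Mfap5 (-4.47 ± 0.10) and Fbln5 (-4.46 ± 0.11) and the small proteoglycan Ogn (-4.27 ± 0.11) were lower as well. Nid2, a basement membrane protein, was the exception at 2.15 ± 0.10.

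Of 38 measured collagens, laminins and their modifying enzymes, 26 were lower in ES cells and 3 higher. The collagen hydroxylase P4ha3 (-5.45 ± 0.09), the crosslinking enzymes Lox (-4.40 ± 0.27) and Loxl3 (-4.30 ± 0.12) and the fibril-associated Col12a1 (-4.20 ± 0.13) led, and Col1a1, the main fibrillar collagen chain, differed by -2.32 ± 0.15. The 3 higher members, Lama1 (2.64 ± 0.12), Lama5 (2.28 ± 0.08) and Col18a1 (1.78 ± 0.12), encode basement membrane components, as does Nid2. Other basement membrane genes were not higher: Nid1 was lower (-1.80), and Lamc1 (0.89), Lama3 (0.38), Lamb1 (-0.01) and Hspg2 (-0.31) were not called.

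Contractile and protease genes were mostly lower in ES cells. Of 25 contractile genes 22 were lower in ES cells and 0 higher, with a median of -2.31. Smooth muscle gamma-actin, Actg2, read 6.31, 6.79 and 5.98 against 11.69, 11.63 and 11.67 (-5.30 ± 0.16), and calponin, Cnn1, read 6.79, 6.94 and 6.35 against 11.78, 11.85 and 11.83 (-5.13 ± 0.17). Alpha-actin, Acta2, kept a level of 9.53 ± 0.60 in ES cells against 13.12 ± 0.03 in day-1 cells (-3.60 ± 0.20). Of 34 proteases and inhibitors 24 were lower, among them the collagen-degrading cathepsin Ctsk (-4.48 ± 0.14), the plasminogen activator Plau (-3.83 ± 0.13) and the inhibitor Timp3 (-3.84 ± 0.25). The 2 higher were Adam23 (1.23 ± 0.07) and the metalloproteinase Mmp3, which read 9.74, 9.60 and 9.63 in ES cells and 8.67, 8.41 and 8.51 in day-1 cells (1.13 ± 0.15).

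ES replicate 2 carried more of these transcripts than the other ES arrays. The median of the contractile list was 9.0 on ES replicate 2 and 8.25 on both other ES arrays, and that of the non-collagen matrix list was 8.10 against 7.68 and 7.69. Feeder fibroblasts had been in the same cultures, and their part in the ES values was not tested. Without ES replicate 2 the counts were again 22 contractile and 29 matrix genes lower, with medians of -2.40 and -3.11. In a bulk sample, fewer cells of a type and less RNA per cell cannot be told apart. For the 19 genes of fibroblast identity, the sum of log2 levels was 141.97 to 147.03 over the ES arrays and 186.41 to 187.68 over the day-1 arrays, and 15 were lower in ES cells. Thy1, a surface marker of fibroblasts, read 7.78, 8.40 and 7.81 against 12.20, 12.14 and 12.12. The 2 higher members were the peptidases Dpp4 (2.88 ± 0.11) and Mme (1.17 ± 0.16).

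**Figure D3:**
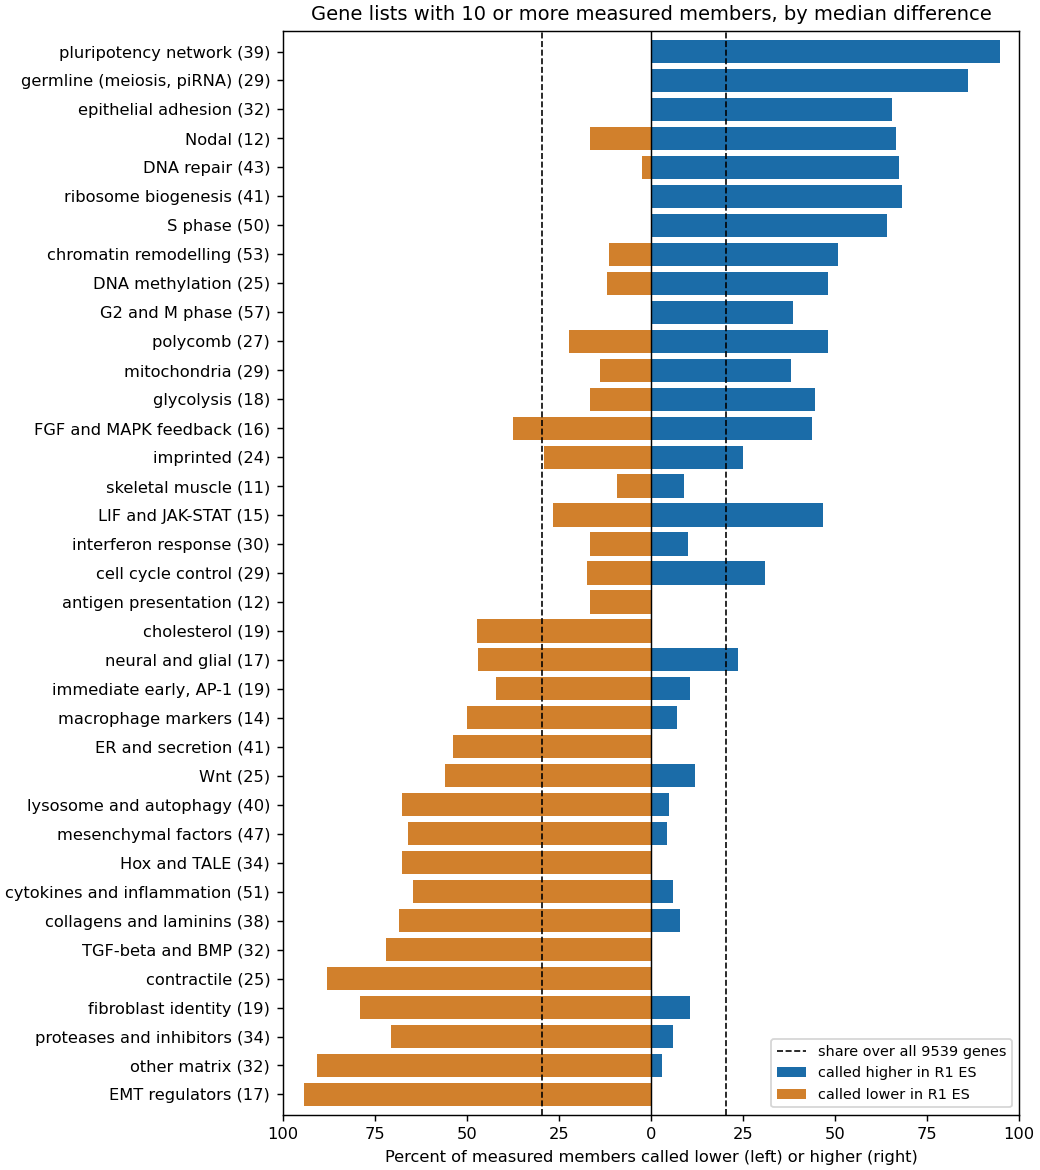
Percent of the measured members of each gene list called higher (blue, right) or lower (orange, left) in R1 ES cells than in day-1 cells, ordered by the list's median difference, with the number measured in brackets; dashed lines mark the shares over all genes, 20.4% higher and 29.5% lower. The pluripotency, germline and epithelial lists stand at the top and the lists of EMT regulators, matrix and proteases at the bottom, while the skeletal muscle, interferon and antigen presentation lists stay below both lines.

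Transcription factors that record a fibroblast's place in the body or mark mesenchyme were lower in ES cells. Of 34 Hox and TALE homeobox genes, 23 were lower and 0 higher, with a median of -1.5. Hoxc6 read 5.70, 5.52 and 5.05 in ES cells and 8.13, 8.14 and 8.27 in day-1 cells (-2.75 ± 0.14), and the Hox cofactor Meis2 (-2.95 ± 0.17), Hoxc8 (-2.60 ± 0.10) and Hoxa10 (-2.55 ± 0.14) were close to it. Of 47 mesenchymal factors 31 were lower and 2 higher. Some are counted in lists above as well, such as Prrx1 and Twist2 among the EMT regulators. The T-box factor Tbx15 read 4.62, 5.58 and 4.70 against 10.55, 10.53 and 10.52 (-5.57 ± 0.20), and the zinc finger factor Osr1 differed by -5.20 ± 0.09 and Ebf1 by -3.95 ± 0.08. The 2 higher were Klf12 (1.54 ± 0.10) and Klf9 (1.52 ± 0.09). AP-1 and other immediate early genes gave 8 lower and 2 higher of 19, with Fosl1 at -3.23 ± 0.13, Jun at -2.63 ± 0.12, Fosl2 at -2.34 ± 0.09 and Ier2 at 2.09 ± 0.09. The other higher call, Klf10 at 1.02, ended without ES replicate 1 or day-1 replicate 1.

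Many replication genes were higher in ES cells. Of 50 S-phase genes 32 were higher and 0 lower, with a median of 1.19, and the intervals of 14 lay within 2-fold. Hells, a chromatin remodeller of replicating DNA, read 11.83, 11.78 and 11.79 in ES cells and 7.73, 7.88 and 8.0 in day-1 cells (3.93 ± 0.13). The helicase subunit Mcm3 (2.56 ± 0.12), the helicase Blm (2.51 ± 0.10), the glycosylase Ung (2.33 ± 0.12) and the origin factor Orc1 (2.13 ± 0.08) were higher. Ribonucleotide reductase Rrm2 stood at 11.30 ± 0.12 and 11.73 ± 0.06, and its difference of -0.43 ± 0.11 had an interval within 2-fold.

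Of 57 G2 and M phase genes, 22 were higher and 0 lower, and 27 had an interval within 2-fold. The kinesin Kif20b (2.66 ± 0.08) and separase, Espl1 (2.34 ± 0.09), led. The proliferation marker Mki67 differed by 0.31 ± 0.09, the kinase Plk1 by 0.07 ± 0.11 and cyclin A2, Ccna2, by -0.01 ± 0.09, all with intervals within 2-fold. The count of higher G2 and M genes depended on the scaling, with 31 after quantile normalization and 35 after centring. Day-1 cells lay between fibroblasts and ES cells on both lists. S-phase members had a median level of 7.74, 8.74 and 10.08 in these 3 groups in order, and G2 and M members one of 7.70, 9.12 and 9.94. Against fibroblasts, whose comparison shares the day-1 arrays with the main one, 28 S-phase and 52 G2 and M genes were higher on day 1 (3.46% of all genes).

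The upstream sequences of Hells and Orc1 are shown because both hold an E2F motif, TTTCCCGC or TTTCGCGC on either strand, the kind of site through which E2F factors drive replication genes. The match, in capitals, begins 62 bases before the start of Hells and 27 bases before that of Orc1.
Hells, chr19:38930740-38930989 (+): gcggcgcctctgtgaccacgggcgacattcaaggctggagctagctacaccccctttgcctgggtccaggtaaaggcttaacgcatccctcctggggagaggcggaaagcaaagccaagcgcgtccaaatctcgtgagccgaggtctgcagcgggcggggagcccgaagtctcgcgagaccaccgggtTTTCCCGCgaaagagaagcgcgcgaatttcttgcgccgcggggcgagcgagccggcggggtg
Orc1, chr4:108579204-108579453 (+): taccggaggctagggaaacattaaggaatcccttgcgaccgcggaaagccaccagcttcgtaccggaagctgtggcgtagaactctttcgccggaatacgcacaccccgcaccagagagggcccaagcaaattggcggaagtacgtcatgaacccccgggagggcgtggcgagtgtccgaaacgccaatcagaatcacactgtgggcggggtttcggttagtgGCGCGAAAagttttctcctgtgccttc
Either motif was in 11 of 31 promoters of the called S-phase genes (35.5%), in 13 of 46 promoters of all measured S-phase genes (28.3%), in 2.38% of promoters of tested genes and in 1.37% of all promoters. Among promoters of all genes called higher the share was 3.73%, and among those called lower 1.31%.

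Mycn read 11.36, 11.07 and 11.29 in ES cells and 6.26, 5.84 and 6.17 in day-1 cells, and the stress gene Gadd45a was higher by 3.5 ± 0.13. The kinase inhibitors Cdkn2c (-2.78 ± 0.14), Cdkn2b (-2.03 ± 0.09) and Cdkn1b (-1.18 ± 0.13) and the cyclin Ccnd2 (-2.74 ± 0.16) were lower. Other kinase inhibitors were not: Cdkn1c was called higher (1.00), and Cdkn2a was not called (-0.85). Of 29 genes of cell cycle control 9 were higher and 5 lower, the latter below the share of lower calls over all genes. The list's median turned with the scaling, from -0.10 to 0.17 and 0.25. Of 43 DNA repair genes 29 were higher, led by the mismatch repair protein Msh6 (4.01 ± 0.09), and 1, the translesion polymerase Polh, was lower (-1.78 ± 0.11). Of 41 ribosome biogenesis genes 28 were higher and 0 lower, with Tsr1 (2.32 ± 0.10) and Ftsj3 (2.23 ± 0.07) in front.

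Germline genes, which are silenced by promoter methylation in somatic cells, were higher in ES cells. Of 45 listed genes 29 were measured, 25 were higher and 0 lower, with a median of 2.47. Sycp3, a protein of the synaptonemal complex that pairs chromosomes in meiosis, read 7.48, 7.91 and 7.85 in ES cells and 3.57, 3.66 and 3.91 in day-1 cells, a 16.4-fold difference (4.03 ± 0.13). Tdrd12 (4.73 ± 0.14), Mael (3.77 ± 0.10) and Rnf17 (3.68 ± 0.12) act in the piRNA pathway that silences transposons, Stag3 (3.66 ± 0.14) is a meiotic cohesin subunit, and Hormad1 (2.71 ± 0.25) watches over chromosome pairing. Their median level was 7.44 in ES cells and 6.29 in iPS cells, against 4.95 in day-1 cells and 4.92 in fibroblasts. Of 8 measured genes of oocytes and cleavage embryos, Ooep (3.20 ± 0.11) and Khdc3 (1.42 ± 0.11) were higher, as was Tdpoz3 (1.08 ± 0.35), which rested on ES replicate 2 at 5.87 against 4.22 and 3.96 and fell to 0.49 without it.

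The upstream sequences of Sycp3 and Hormad1 are shown because each holds 2 copies of the E-box CACGTG, in capitals, a sequence that reads the same on both strands and is known as a recognition site of the Max family of factors.
Sycp3, chr10:88459337-88459586 (+): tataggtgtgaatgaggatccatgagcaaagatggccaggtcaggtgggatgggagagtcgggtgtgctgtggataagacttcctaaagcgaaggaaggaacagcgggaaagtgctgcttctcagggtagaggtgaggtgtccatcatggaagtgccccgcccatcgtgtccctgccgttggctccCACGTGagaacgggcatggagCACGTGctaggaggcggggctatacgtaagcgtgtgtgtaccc
Hormad1, chr3:95559427-95559676 (+): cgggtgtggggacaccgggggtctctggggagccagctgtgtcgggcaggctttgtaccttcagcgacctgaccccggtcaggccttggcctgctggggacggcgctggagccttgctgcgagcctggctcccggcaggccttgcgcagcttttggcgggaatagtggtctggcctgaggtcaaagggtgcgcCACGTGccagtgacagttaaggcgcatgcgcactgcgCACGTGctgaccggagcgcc
The E-box was in 12 of 27 promoters of the called germline genes (44.4%), in 12 of 29 of all measured germline genes (41.4%), in 9.70% of promoters of tested genes and in 7.15% of all promoters. The share was 11.9% among promoters of all genes called higher and 7.74% among those called lower. Several of the genes have more than 1 listed start, and overlapping promoters of a gene share their letters, so the 12 promoters of called germline genes belong to 10 genes.

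Of 25 measured genes of DNA methylation and its removal, 12 were higher and 3 lower, the latter below the share of lower calls over all genes. The de novo system was higher in ES cells: Dnmt3l read 10.91, 10.99 and 11.13 against 5.68, 5.67 and 5.93 (5.25 ± 0.10), Dnmt3b 10.20, 9.66 and 10.38 against 5.99, 6.41 and 6.15 (3.89 ± 0.17), and Dnmt3a differed by 2.34 ± 0.09. Maintenance methyltransferase Dnmt1 was not called, at 0.96 ± 0.09. Among the dioxygenases, Tet2 (3.11 ± 0.15) was higher along with Tet1, while Tet3 (-1.61 ± 0.13) was lower, as were the methyl-CpG binding protein Mbd2 (-1.26 ± 0.09) and Gadd45g (-2.01 ± 0.10).

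Of 27 measured Polycomb genes, 13 were higher and 6 lower in ES cells, the latter below the share of lower calls over all genes. The PRC2 cofactors Jarid2 (3.36 ± 0.08) and Mtf2 (3.21 ± 0.09) and the PRC1 subunits Phc1 (3.12 ± 0.07) and Cbx7 (2.82 ± 0.13) were higher, and the PRC2 enzyme Ezh2 stood at 1.00 ± 0.07. Phc2 (-1.28 ± 0.12), Phc3 (-1.37 ± 0.11) and Cbx8 (-1.12 ± 0.13), together with Bmi1 (-1.40 ± 0.10), Pcgf3 (-1.19 ± 0.09) and Yaf2 (-2.52 ± 0.08), were lower. After centring, Phc2 (-0.94), Cbx8 (-0.77) and Pcgf3 (-0.84) were no longer called. Of 53 chromatin genes, a list that shares Kdm2b with the Polycomb list, 27 were higher and 6 lower. These lower calls, too, were below their share over all genes. Chd7, a remodelling ATPase, read 9.23, 9.42 and 9.51 against 5.03, 4.88 and 4.89 (4.45 ± 0.13), and the histone demethylase Kdm3a differed by 3.16 ± 0.08. The 6 lower were the chromatin architect Hmga2 (-3.56 ± 0.15), Smarca2 (-2.74 ± 0.12), Hdac7 (-2.15 ± 0.09), Setd7 (-1.88 ± 0.09), Chd3 (-1.75 ± 0.06) and Smarcc2 (-1.74 ± 0.10).

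Of 24 measured imprinted genes, which are expressed from one parental allele, 6 were higher and 7 lower, shares close to those over all genes. Zdbf2 read 10.55, 10.55 and 10.73 in ES cells and 5.21, 5.2 and 5.33 in day-1 cells (5.37 ± 0.14), and Phlda2, a growth-restraining gene of the placenta, differed by 3.75 ± 0.10. Ndn (-2.96 ± 0.11), Sgce (-2.78 ± 0.10), Dlk1 (-2.38) and the growth factor Igf2 (-2.21) were lower. The count of higher genes was 11 after centring and 4 without day-1 replicate 3, since the calls of Rian (1.08) and Cdkn1c (1.00) lay at the fold minimum.

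Among genes of sugar use, the glucose transporter Slc2a3, which is GLUT3, read 12.73, 12.82 and 12.61 in ES cells and 7.23, 7.49 and 7.20 in day-1 cells, a 42.5-fold difference (5.41 ± 0.10). Slc2a1, the widespread transporter GLUT1, was not called (0.68). Hexokinase Hk2 was higher (3.01 ± 0.07) and Hk1 lower (-1.38 ± 0.08), Pdk1, a brake on pyruvate entry into mitochondria, was higher (3.31 ± 0.13), Aldoc was higher (2.47 ± 0.15) and the muscle-type enolase Eno3 lower (-1.86 ± 0.17). In all, 8 of 18 glycolysis genes were higher and 3 lower, the latter below the share of lower calls over all genes. Of 29 genes listed as mitochondrial 11 were higher and 4 lower, the latter again below that share, and 2 were lower under either other scaling. The widest of the 11 was Esrrb (5.46 ± 0.09), which the pluripotency list also holds. The mitochondrial DNA factor Tfam stood at 2.04 ± 0.09 and the ATP synthase subunit Atp5g1 at -1.70 ± 0.07. Of 19 cholesterol genes 9 were lower and 0 higher, with Mvk at -1.65 ± 0.07, and after centring 5 were lower and 3 higher.

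Among lysosome and secretory genes, more were lower than higher in ES cells. Of 40 lysosome and autophagy genes 27 were lower and 2 higher, with Creg1 (-3.5 ± 0.07), Ctsh (-3.37 ± 0.11) and Cd63 (-3.21 ± 0.16) after Ctsk, and with Laptm5 (1.93 ± 0.12) and the autophagy kinase Ulk1 (1.17 ± 0.06) as the exceptions. Of 41 genes of the endoplasmic reticulum and secretion, 22 were lower and 0 higher, and 14 had an interval within 2-fold. The lower count was 18 after quantile normalization and 15 after centring, and the median moved from -1.06 to -0.85 and -0.72. For the lysosome list the lower count was 23 under either other scaling. The coatomer subunit Copz2 (-3.66 ± 0.13), the secretory stress factor Creb3l2 (-3.60 ± 0.13) and the collagen-folding isomerases Fkbp14 (-3.30 ± 0.08) and Fkbp7 (-3.26 ± 0.13) showed the widest differences.

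Most inflammatory signalling genes were lower in ES cells, while most interferon response genes were not called. Of 51 genes of cytokines and inflammation 33 were lower and 3 higher, with a median of -1.58. The chemokine precursor Ppbp had the lowest difference of all named genes: it read 5.34, 5.0 and 5.18 in ES cells and 11.35, 11.62 and 11.54 in day-1 cells, an 80.3-fold difference (-6.33 ± 0.13). Vcam1 (-3.96 ± 0.13), the TNF receptor Tnfrsf1a (-3.95 ± 0.13) and the interleukin-1 receptor Il1r1 (-3.80 ± 0.14) followed, and Ly96, the partner of the endotoxin receptor Tlr4, differed by -5.96 ± 0.14 outside the list. Icam1 (1.81 ± 0.11), Saa3 (1.48 ± 0.23) and Lcn2 (1.36 ± 0.12) were higher in ES cells.

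Of 30 interferon response genes 22 were not called, 15 of them with an interval within 2-fold, 3 were higher and 5 lower, and the median was -0.07. Under either other scaling 5 were higher, with medians of 0.03 and 0.27. Cxcl10 stood at 5.82 in both groups. Ifitm1, a membrane protein that ES cells and germ cells are known to express, read 10.40, 9.99 and 10.14 against 6.84, 6.29 and 6.79 (3.53 ± 0.26). Isg20 (-2.33 ± 0.13), Ifit2 (-1.96 ± 0.15) and Ifitm3 (-1.92 ± 0.13) were lower. ES replicate 2 stood apart here, with a list median of 6.93 against 6.32 and 6.34. Oas2 read 8.04 on it and 6.43 and 6.52 on the others. Without it 1 gene was higher and 8 were lower, as the calls of Oas2 (0.74) and Xaf1 (0.93) ended. Members had a median level of 6.33 in day-1, 6.47 in ES and 6.25 in iPS cells, and of 9.55 in uninduced fibroblasts. Of 12 antigen presentation genes 2 were lower, beta-2 microglobulin, B2m (-2.87 ± 0.24), and H2-DMa (-1.06), and after centring 2 were higher.

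**Figure D4:**
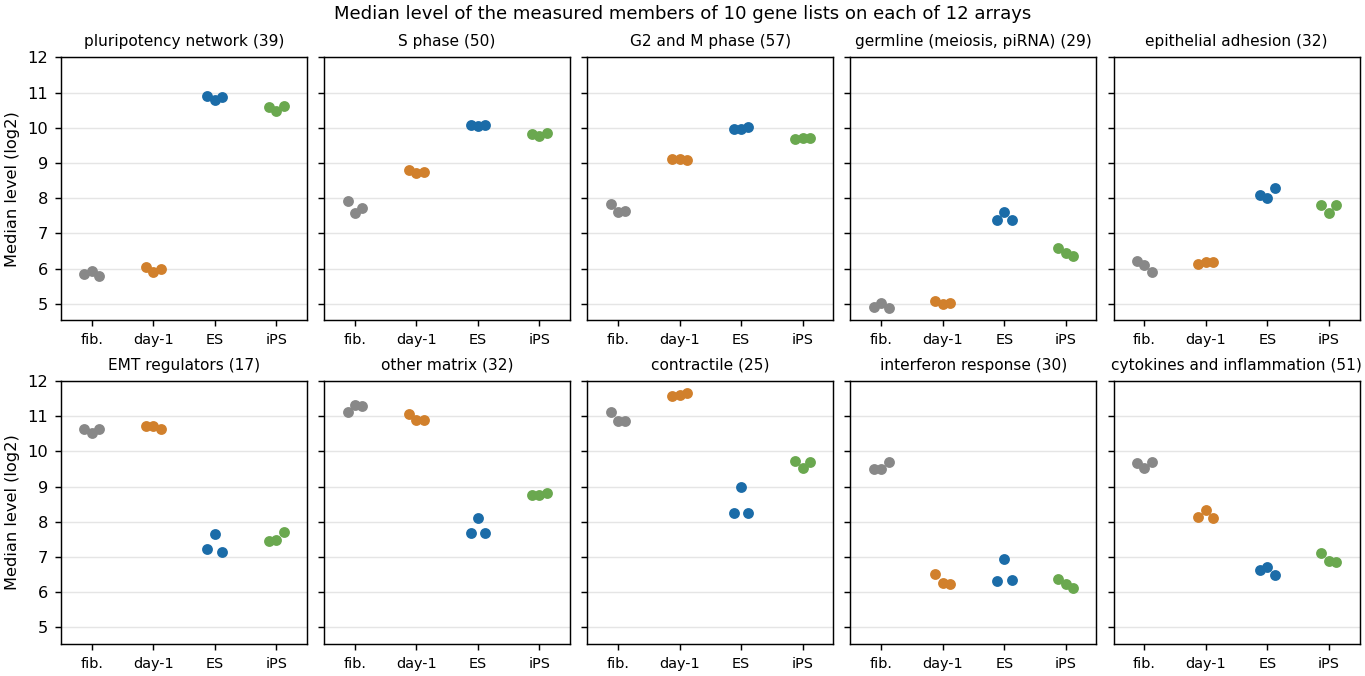
Median log2 level of the measured members of 10 gene lists on each of the 12 arrays, in fibroblasts (fib.), day-1, R1 ES and iPS cells; each point is 1 array. Day-1 cells sit with fibroblasts for pluripotency, germline, adhesion, EMT and matrix genes, between fibroblasts and ES cells for S-phase, G2 and M and cytokine genes, and with ES and iPS cells for interferon genes; ES replicate 2 is the raised blue point in the contractile panel.

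Markers of other cell types gave the following values. Of 14 macrophage markers 7 were lower in ES cells and 1 higher. Lysozyme, Lyz2, read 4.85, 4.99 and 4.69 against 9.34, 9.12 and 9.17 (-4.36 ± 0.15), and C1qb differed by -2.22 ± 0.12. The summed log2 level of the list was 95.58 to 97.68 in day-1 cells and 82.51 to 83.56 in ES cells, and the part of macrophages in the inflammatory values of the day-1 cells was not tested. After centring 3 macrophage markers were lower. Of 6 endothelial markers, Pecam1, which ES cells are known to carry, was higher in ES cells (2.79 ± 0.15), as was Mmrn2 (1.12), and of 4 keratinocyte markers Sfn was (2.53 ± 0.14). Of 17 neural and glial genes 8 were lower and 4 higher. Fabp7, a fatty acid binding protein of radial glia, read 5.14, 4.96 and 4.97 in ES cells and 10.13, 10.14 and 10.2 in day-1 cells (-5.14 ± 0.13), and 6.69 in fibroblasts. Gfra1 (-3.60 ± 0.18) and Tuba8 (-3.31 ± 0.15) were lower, and Stmn2 (2.91 ± 0.15), Erbb3 (1.97 ± 0.13), Nefh (1.77 ± 0.11) and Sox2 were higher. Of 11 skeletal muscle genes, Mylpf was higher (2.04 ± 0.18), Acta1 lower (-2.14 ± 0.17), and the other 9 had intervals within 2-fold.

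Sex-linked genes did not point one way. The Y-linked gene Eif2s3y read 9.62, 9.54 and 9.61 in ES cells and 6.02, 5.88 and 5.70 in day-1 cells (3.72 ± 0.12), while the Y-linked Kdm5d read 5.16, 4.87 and 4.75 against 6.61, 6.82 and 6.87 (-1.84 ± 0.11). Xist, the RNA that coats the inactive X chromosome, read 6.27, 6.41 and 5.65 against 4.45, 4.20 and 3.92 (1.92 ± 0.19). The groups did not overlap for any of the 3, and the labels used here do not state the sex of the cells.

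Whether the same genes separate pluripotent from somatic cells elsewhere was asked in the 6 arrays that the comparison does not use. In iPS cells against uninduced fibroblasts, 4897 genes were called (51.3%), 2075 higher (21.8%) and 2822 lower (29.6%). Genes higher in both comparisons numbered 1411, which is 72.5% of those higher in ES against day-1 cells and 68.0% of those higher in iPS cells against fibroblasts. Genes lower in both numbered 2083, or 74.0% and 73.8%. Opposite calls were made for 24 genes higher in ES cells and lower in iPS cells, and for 4 the other way. Across genes the 2 sets of differences correlated with r = 0.845, a description over 9539 genes that are not independent. Calls in ES against day-1 cells that were absent from the other comparison numbered 512 higher and 729 lower.

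The difference between both comparisons was itself tested and called for 1624 genes (17.0%), 784 where the ES difference was the more positive and 840 where it was the more negative. Pou5f1 gave the widest negative value, -6.40 ± 0.12 (limma adjusted p = 2.5e-12), with means of 12.36, 11.79 and 12.01 in ES, day-1 and iPS cells and 5.04 in fibroblasts. For interferon genes 27 of 30 were called with a more positive ES difference, against 784 of all 9539 genes. A more negative one was called for 37 of 57 G2 and M genes, 19 of 50 S-phase genes and 15 of 25 contractile genes. Over all genes it was called for 840 of 9539. In the pluripotency list 5 of 39 members were called more positive and 3 more negative, near the share of all genes called either way (17.0%). Zfp42 was one of the former: it read 11.10, 11.57 and 11.46 in ES cells and had a mean of 8.60 in iPS cells, and its ES difference exceeded the iPS one by 2.53 ± 0.23 (limma adjusted p = 1.3e-06). Values against the neighbouring groups are given only side by side, since they share arrays with the main comparison. In ES against iPS cells, 14 of 25 contractile, 14 of 38 collagen and laminin and 15 of 32 other matrix genes were lower (4.44% of all genes). In iPS cells Postn read 9.47, Actg2 9.44 and Col1a1 12.22. Of 29 germline genes 9 were higher in ES than in iPS cells (2.45% of all genes) and 2 lower.

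**Figure D5:**
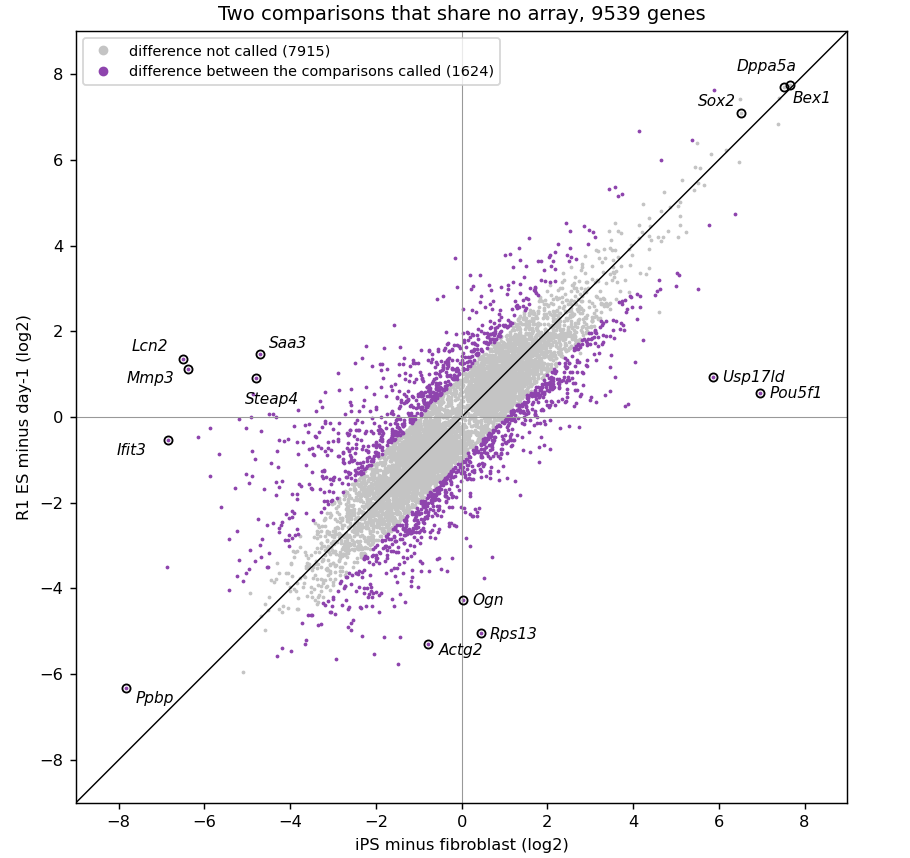
Log2 difference of R1 ES minus day-1 cells (vertical) against iPS cells minus fibroblasts (horizontal) for 9539 genes; the comparisons share no array, the line marks equal differences, and purple points are the 1624 genes whose difference between the comparisons was called. Dppa5a, Bex1 and Sox2 lie near the line, Pou5f1 and Usp17ld far to its right, and Lcn2, Mmp3, Saa3 and Ifit3 far to its left.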

How the data were processed

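The deposited series matrix gave 1 log2 value per probe set and array for 12 arrays. Background correction, normalization and summarizing of probes by the authors for these log2 values are not given in the sources used here. Gene names came from the platform's annotation: of 10360 probe sets, 9542 had 1 gene symbol, 344 had several and 474 none, and only those with 1 were used. For 3 genes with several probe sets the one with the highest mean was kept, which left 9539 genes. Values were used as deposited, with no further scaling.

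limma 3.58.1 in R 4.3.3 was fitted on all 12 arrays with a mean for each of 4 groups, so that they share 1 estimate of spread, and the Benjamini-Hochberg adjustment ran over all 9539 genes. A call needed an adjusted p under 0.05 and a log2 difference of at least 1. Errors of differences are standard errors, and SDs are over 3 arrays. The same fit tested the difference between the ES and day-1 comparison and the iPS and fibroblast comparison.

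The gene lists and the members named were chosen with earlier results of these data known. Lists share members, so their counts are not separate. Tdgf1 and Gdf3 are on the pluripotency and Nodal lists, and Fgf4, Etv4 and Etv5 on the pluripotency and FGF lists. Genes named come from the 15 highest and 15 lowest calls (gene models without a proper name aside), from each list's widest calls, at most 4, members against their list's direction, Pou5f1, Tet1, Sox2, Klf4, Myc and Nanog, and 5 genes at each end of the difference of comparisons. Other members are mentioned as examples, chosen after their values were seen. Replicate numbers do not pair samples: deviations of same-numbered arrays correlated at 0.04, -0.04 and 0.00. Promoters of 300 bases (250 before to 50 after each start) came from RefSeq, build GRCm38.p6, and were searched for exact motif letters on both strands. Alternatives were other scalings (quantile, centring), a filter on low genes, other call rules, other fits and leaving out each array. The procedure was tested on simulated data. Figures were drawn with matplotlib 3.10.9.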

Additional observations from a re-analysis of the deposited data

Results flagged for a closer look

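The difference between R1 ES minus day-1 cells and iPS cells minus fibroblasts, tested in limma's fit, was called for 1624 genes, and 5 genes at either end of that list stand out by size.

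The 5 most positive genes had high levels in uninduced fibroblasts. Lcn2, an iron-scavenging acute phase protein, gave 7.87 ± 0.16 (SE), with means of 6.74 in ES, 5.38 in day-1, 5.26 in iPS cells and 11.77 in fibroblasts. The metalloproteinase Mmp3 gave 7.52 ± 0.21, with 9.66, 8.53 and 5.78 in the first 3 groups and 12.18 in fibroblasts. The interferon response gene Ifit3 gave 6.33 ± 0.22 and read 11.55 in fibroblasts against 4.84 in ES and 5.37 in day-1 cells. The acute phase gene Saa3 gave 6.18 ± 0.32 and the metalloreductase Steap4 5.70 ± 0.31, with 12.77 and 10.53 in fibroblasts.

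The 5 most negative genes had no single pattern. Pou5f1 gave -6.40 ± 0.12 and read 5.04 in fibroblasts. Rps13, a ribosomal protein gene with known pseudogene copies, gave -5.50 ± 0.64: it read 3.58, 5.50 and 5.80 on the ES arrays, which spread widely, against means of 10.01, 9.32 and 8.88 in the other groups. Whether its probe set reads the copies was not tested. Usp17ld, a deubiquitinase gene of a family of near copies, gave -4.92 ± 0.25 and read 11.69 in iPS cells, 7.15 in ES, 6.21 in day-1 cells and 5.83 in fibroblasts. Actg2 gave -4.51 ± 0.23, with 6.36 in ES and 9.44 in iPS cells, and the proteoglycan Ogn -4.30 ± 0.16, with 4.84 and 7.61.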

How the results depend on the processing

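The split of calls by direction depended on the scaling. The share of ES and day-1 calls that were higher was 51.7% after quantile normalization, 58.3% after centring, 39.4% without the lowest 25% of genes, 45.2% by adjusted p alone and 39.3% with limma's treat. Of the 4763 calls, 4248 were shared with quantile normalization and 3978 with centring. By adjusted p alone the calls were 8914 (4027 higher, 4887 lower) for ES against day-1 cells, 8985 (4004, 4981) for iPS cells against fibroblasts and 5705 (2454, 3251) for the difference of both. Treat left 655 calls of that difference (342, 313), and the filter on low genes left 505 positive ones. The replicate block, with numbers that do not pair samples, gave 4763 calls. Leaving out 1 array gave 4744 to 4783 calls, 1924 to 1961 higher, 2787 to 2846 lower and 40.3% to 41.3% higher; for iPS cells 4853 to 4917, 2057 to 2094 and 2764 to 2854; for the difference 1594 to 1698, 756 to 823 and 820 to 911. A fit on only the groups compared was not run for the difference, which needs all 4. Of 228 named genes none reversed under any alternative and 200 kept their side of the threshold throughout. Among these 228 genes, leaving out 1 array ended the calls of Klf10, Xaf1, Cycs, Cdkn1c, Rian, Tdpoz3, Oas2, Fgfr2 and Dusp4. List members outside the 228 lost calls too: the higher counts fell to as few as 36 pluripotency, 24 germline and 12 Polycomb genes.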
